A study of Mus musculus with 9 samples.

Results

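Interferon-stimulated genes are the genes that cells switch on when interferon binds its receptor, and 49 of them were followed across macrophages and tumour cells of the mouse. They were chosen by name from the antiviral effectors, the guanylate-binding proteins with the related immunity GTPases, and the STAT and IRF regulators. Of the 49, 47 were found in both deposited gene tables, among 21820 genes that the tables share. Mx1 and Mx2 were found by gene identifier in the macrophage table, and their levels in tumour cells were not analysed here. The 47 comprised 34 type I effectors, 7 guanylate-binding proteins and immunity-related GTPases, 4 STAT and IRF regulators and 2 chemokines.

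RNA was sequenced from 9 cultures of strain C57BL, with 1 library in each group and so no replicates. Of these, 4 were bone-marrow-derived macrophages, labelled GM-BMDM or M-BMDM by kind, given 4 h of tunicamycin or left untreated. Tunicamycin blocks the glycosylation of new proteins and stresses the endoplasmic reticulum. The other 5 were cells of the mouse tumour line Lewis lung carcinoma (LLC), kept for 24 h in medium that GM-BMDM or M-BMDM had conditioned for 16 h, or left untreated. The macrophages that conditioned the medium had first had 12 h of tunicamycin and a wash (stressed medium) or no tunicamycin (unstressed medium). The medium of the untreated LLC cells is not stated in the labels.

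Type I interferons act through the receptor chains Ifnar1 and Ifnar2 and the kinases Jak1 and Tyk2. These activate transcription factors, among them Stat2, which with Irf9 is part of the complex ISGF3 that binds the interferon-stimulated response element in target promoters. Type II interferon acts through another promoter element, the gamma-activated sequence. Macrophages carry a low, standing activity of this pathway that primes them for infection, and Irf7 and Irf1 feed it forward.

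The response element is shown first for the members on which the results turn, because its spacing and orientation differ between them. Promoter windows of 250 bases before to 50 after each transcription start were taken from RefSeq, build GRCm38.p6, in which 37 of the 49 members had an entry. The core searched was GAAANNGAA on both strands, with overlapping matches counted, and capitals mark each match or its reverse complement. Each stretch runs 5′ to 3′ on the gene's own strand, from 15 bases before the first match to 15 after the last.
Ifit3 (chr19:34583359-34583450, plus strand): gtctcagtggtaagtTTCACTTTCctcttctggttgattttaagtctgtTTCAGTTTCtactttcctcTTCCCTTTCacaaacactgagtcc
Ifit3b (chr19:34607755-34607846, plus strand): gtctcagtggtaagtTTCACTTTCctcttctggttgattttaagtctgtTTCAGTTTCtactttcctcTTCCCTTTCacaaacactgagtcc
Oas1a (chr5:120907516-120907560, minus strand): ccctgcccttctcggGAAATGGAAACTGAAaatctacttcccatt
Ifi211 (chr1:173913060-173913098, minus strand): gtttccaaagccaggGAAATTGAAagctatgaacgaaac
Isg15 (chr4:156200861-156200911, minus strand): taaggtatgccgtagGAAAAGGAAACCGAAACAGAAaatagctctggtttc
Bst2 (chr8:71537573-71537617, minus strand): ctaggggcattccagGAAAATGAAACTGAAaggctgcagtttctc
Ifitm3 (chr7:141010702-141010757, minus strand): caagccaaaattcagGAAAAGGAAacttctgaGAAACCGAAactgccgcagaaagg
Ifi44 (chr3:151749890-151749928, minus strand): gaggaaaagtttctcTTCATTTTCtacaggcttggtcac
Gbp2 (chr3:142620590-142620628, plus strand): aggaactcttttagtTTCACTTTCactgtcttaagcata
Gbp7 (chr3:142530269-142530307, plus strand): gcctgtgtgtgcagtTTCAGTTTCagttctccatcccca
Cxcl10 (chr5:92349079-92349117, minus strand): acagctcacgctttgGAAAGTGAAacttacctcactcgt

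At least 1 core stood in the window of 25 of the 37 member genes (67.6%), against 2638 of 27025 genes (9.76%) in the whole table. All 6 guanylate-binding and immunity-related GTPase genes with an entry had it, as did 16 of 25 effectors and 1 of 4 regulators, Stat2. Irf1, Irf7 and Irf9 had no match within these windows, nor had Ifit2 or Oasl1. Ifit3 and Ifit3b, close together on chromosome 19, carried 3 cores each in stretches of 92 bases that differed at 0 positions. Their transcripts were not compared. Reads may be shared between paralogs, so the separate levels of Ifit3 and Ifit3b are uncertain. In Isg15 the 3 cores overlapped, and in Bst2 and Oas1a 2 cores overlapped. Gbp7 and Gbp2, from 1 gene cluster on chromosome 3, each had 1 core close to the start site. The gamma-activated sequence, TTCNNNGAA on both strands, stood in 11 of the 37 windows (29.7%), against 9.55% of all genes in the table, and its letters can overlap those of the response element. These matches describe the windows and are not evidence of binding.

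**Figure D1:**
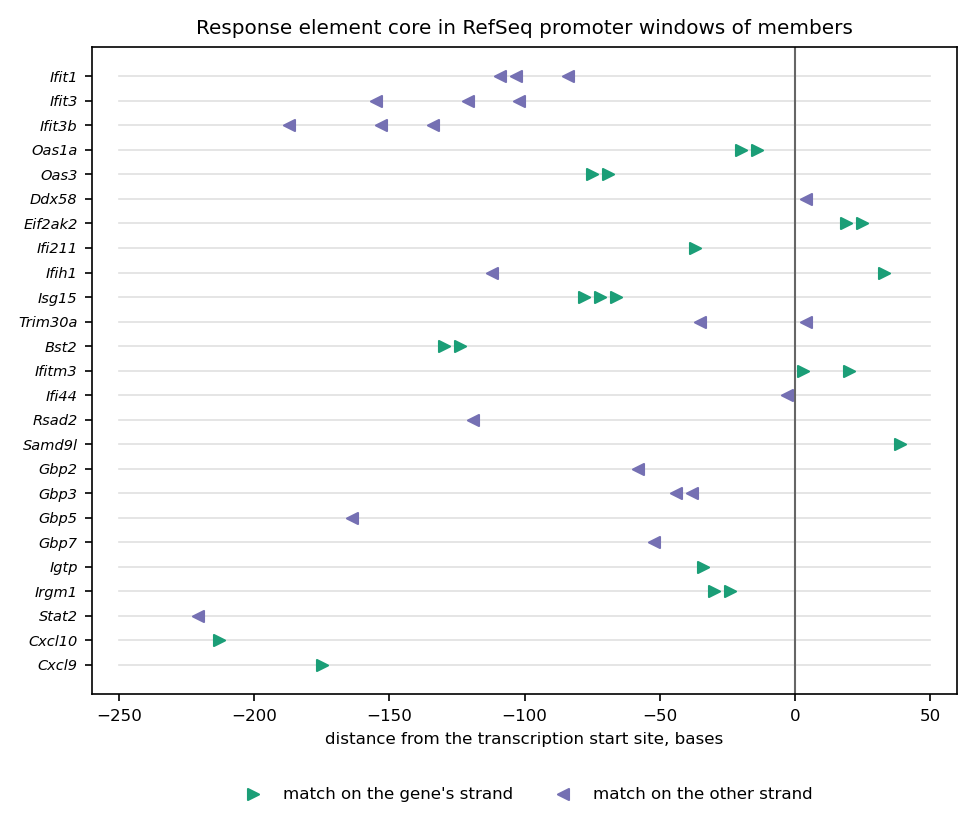
Position of each core match (triangles, pointing with the strand of the match) in the RefSeq promoter windows of the 25 members with a match, in bases from the transcription start site. Of 42 matches, 34 lie upstream of the start and 27 of those within 150 bases of it.

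Macrophage libraries held 37695079 to 42751176 assigned reads and LLC libraries 15020068 to 17128471. Levels are CPM, counts scaled to a common library size within each table by the TMM method, so that macrophage and LLC levels are not on one scale. Members took 0.182% and 0.186% of assigned reads in tunicamycin-treated and untreated GM-BMDM, against 0.647% and 0.668% in tunicamycin-treated and untreated M-BMDM. They took 0.0652% to 0.0739% in LLC libraries. All 10 macrophage markers examined were at 1 CPM or above in each macrophage library. In LLC cells 3 to 4 of those 10 were at 1 CPM or above, with sums of 26.8 to 30.4 CPM with the media and 40.7 CPM in untreated cells. Adgre1, Ptprc and Itgam had 0 counts in each of the 5 LLC libraries, while Cd14 had 10.9 to 16.8 CPM, Mertk 8.06 to 15.8 CPM and Lyz2 2.73 to 5.01 CPM. In the same cells the epithelial genes Krt8 and Krt18 were the ones at 1 CPM or above among 5 epithelial markers.

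The largest difference lay between the macrophage kinds: GM-BMDM held less RNA of nearly every interferon-stimulated gene tested than M-BMDM, by margins that ranged from small to large. An additive fit of kind and tunicamycin over the 4 macrophage libraries, in which the pair of libraries of a kind stands in for replicates, called 45 of 46 tested members lower in GM-BMDM by the quasi-likelihood test of edgeR, with p-values adjusted by Benjamini-Hochberg over 11049 genes at 0.05. The same fit called 25.0% of all genes lower and 25.4% higher, and Gbp7 was the 1 member called higher. The median log2 fold change, GM-BMDM over M-BMDM, was -1.86 over members and -0.04 over all genes. Of the 46, Ifit3b, Oasl1, Iigp1 and Cxcl10 were below 1 CPM in both GM-BMDM libraries and passed the filter on mean level through M-BMDM alone, so their direction was fixed by the filter. Of the other 42, 41 were called lower and 1 higher, with a median of -1.80. By group, the median was -2.34 for the effectors, -1.35 for the STAT and IRF regulators and -1.17 for the guanylate-binding and immunity-related GTPases. In RNA from whole cultures, fewer cells that express a gene and less RNA of it per cell cannot be told apart.

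**Figure D2:**
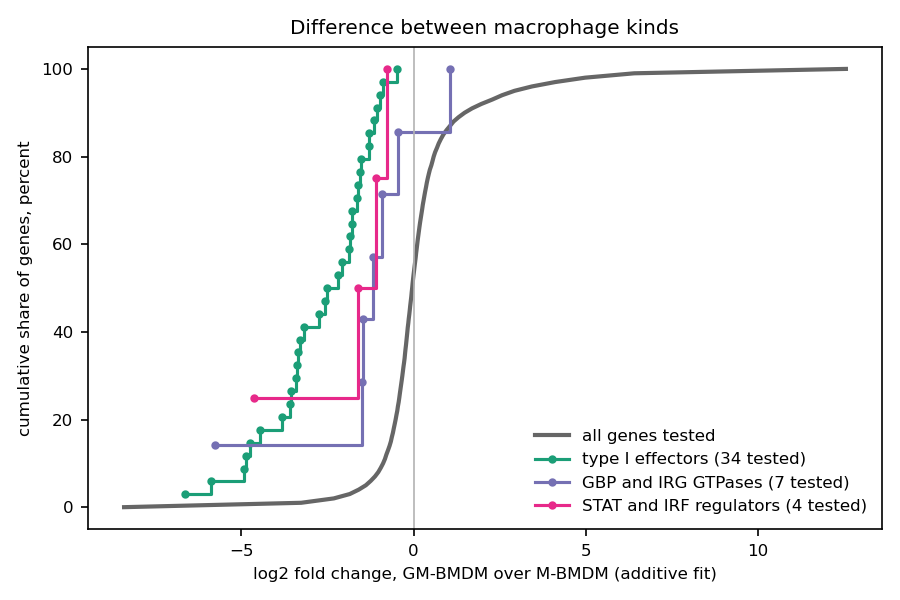
Cumulative share of genes (vertical axis, percent) by log2 fold change, GM-BMDM over M-BMDM, from the additive fit (horizontal axis). The grey curve holds all 11049 genes tested, and the steps hold 34 effectors, 7 guanylate-binding and immunity-related GTPases and 4 STAT and IRF regulators, with medians of -2.34, -1.17 and -1.35.

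Among the regulators, Irf7, which drives the later wave of interferon genes, had 7.28 CPM with tunicamycin and 5.56 CPM without in GM-BMDM, against 153 and 165 CPM in M-BMDM. Both GM-BMDM libraries lay far below both M-BMDM libraries, and the log2 fold change was -4.63 ± 0.17 (SE). Irf1, a regulator that interferon gamma induces strongly, had 60.5 and 51.0 CPM in tunicamycin-treated and untreated GM-BMDM, against 229 and 125 CPM in tunicamycin-treated and untreated M-BMDM. Irf9 and Stat2 differed less than Irf7. The log2 fold change of Irf9 was -1.09 ± 0.13 and that of Stat2 -0.77 ± 0.11. For these genes too, both GM-BMDM libraries lay below both M-BMDM libraries.

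The tetratricopeptide proteins of the Ifit family, which bind foreign RNA, showed the widest gap of any class with more than 1 tested gene, with a median log2 fold change of -5.41 in the fit. Ifit3 had 2.36 and 2.53 CPM in tunicamycin-treated and untreated GM-BMDM, against 128 and 163 CPM in tunicamycin-treated and untreated M-BMDM. In untreated cells that was 64.5 times lower in GM-BMDM, with a 95% counting interval of 53.0 to 79.2. Ifit2 had 11.5 and 10.9 CPM in tunicamycin-treated and untreated GM-BMDM, against 327 and 356 CPM in tunicamycin-treated and untreated M-BMDM. The levels of both were at least 28.4 times lower in GM-BMDM with and without tunicamycin. Ifit2 lacked an exact core in its window and Ifit3 held 3 copies. Over tested members with an entry in the promoter table, the median log2 fold change was -1.60 for the 24 with a core and -2.84 for the 12 without one. The 2 groups also differ in class, since all 6 guanylate-binding and immunity-related GTPase genes with an entry had a core. The part of the core in the gap was not tested.

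The oligoadenylate synthetases, whose product activates an RNA-cutting enzyme, followed with a median of -3.38. Oasl1, a relative without that activity, was at the low end of the family with -4.88 ± 0.23, and Oas1a at the high end with -1.65 ± 0.12. Oasl1 had 0.566 and 0.919 CPM in tunicamycin-treated and untreated GM-BMDM, against 22.6 and 21.0 CPM in tunicamycin-treated and untreated M-BMDM. Among the other effectors, with a median of -3.18, Rsad2 encodes viperin, which makes a chain-terminating nucleotide. Rsad2 had 16.9 and 14.8 CPM in tunicamycin-treated and untreated GM-BMDM, against 177 and 136 CPM in tunicamycin-treated and untreated M-BMDM. Its genomic neighbour Cmpk2, a nucleotide kinase of mitochondria, had a log2 fold change of -3.83 ± 0.14. Ifi44 stood lowest in that class at -4.76 ± 0.16 and Ifi35 highest at -0.88 ± 0.14. Mx1 and Mx2, of a family of antiviral GTPases, were looked up after the lists were made. Their log2 fold changes were -2.87 ± 0.20 and -3.13 ± 0.16.

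Genes that modify proteins with the ubiquitin-like Isg15 or with ADP-ribose had a median of -1.62, and Isg15 itself was the lowest of them at -3.58 ± 0.17. Isg15 had 1.77 and 1.74 CPM in tunicamycin-treated and untreated GM-BMDM, against 19.6 and 22.5 CPM in tunicamycin-treated and untreated M-BMDM. Parp14, an ADP-ribosyltransferase, had 231 and 209 CPM in tunicamycin-treated and untreated GM-BMDM, against 738 and 796 CPM in tunicamycin-treated and untreated M-BMDM. The nucleic acid sensors had a median of -1.88. The RNA helicases Ddx58 (RIG-I) and Ifih1 (MDA5) stood at -1.88 ± 0.11 and -1.29 ± 0.11. The kinase Eif2ak2 (PKR), which halts translation on double-stranded RNA, differed least among the effectors at -0.48 ± 0.12. The membrane proteins Bst2 (tetherin), which holds budding virus at the cell surface, and Ifitm3, which blocks viral fusion, stood at -1.84 ± 0.12 and -0.97 ± 0.12.

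Scaled per length by the deposited FPKM, Ifitm3, Ifi27l2a and Bst2 held the first 3 places in each of the 4 macrophage libraries. Ifitm3 had 285 and 365 FPKM in tunicamycin-treated and untreated GM-BMDM, against 565 and 780 FPKM in tunicamycin-treated and untreated M-BMDM. The median FPKM of the members was 6.27 and 5.84 in tunicamycin-treated and untreated GM-BMDM, close to the 6.69 and 6.35 of all genes past the filter. In M-BMDM it was 27.6 and 27.7 with and without tunicamycin, against 7.33 and 6.57 for all genes past the filter. The members thus sat at an ordinary level in GM-BMDM and well above the ordinary level in M-BMDM.

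**Figure D3:**
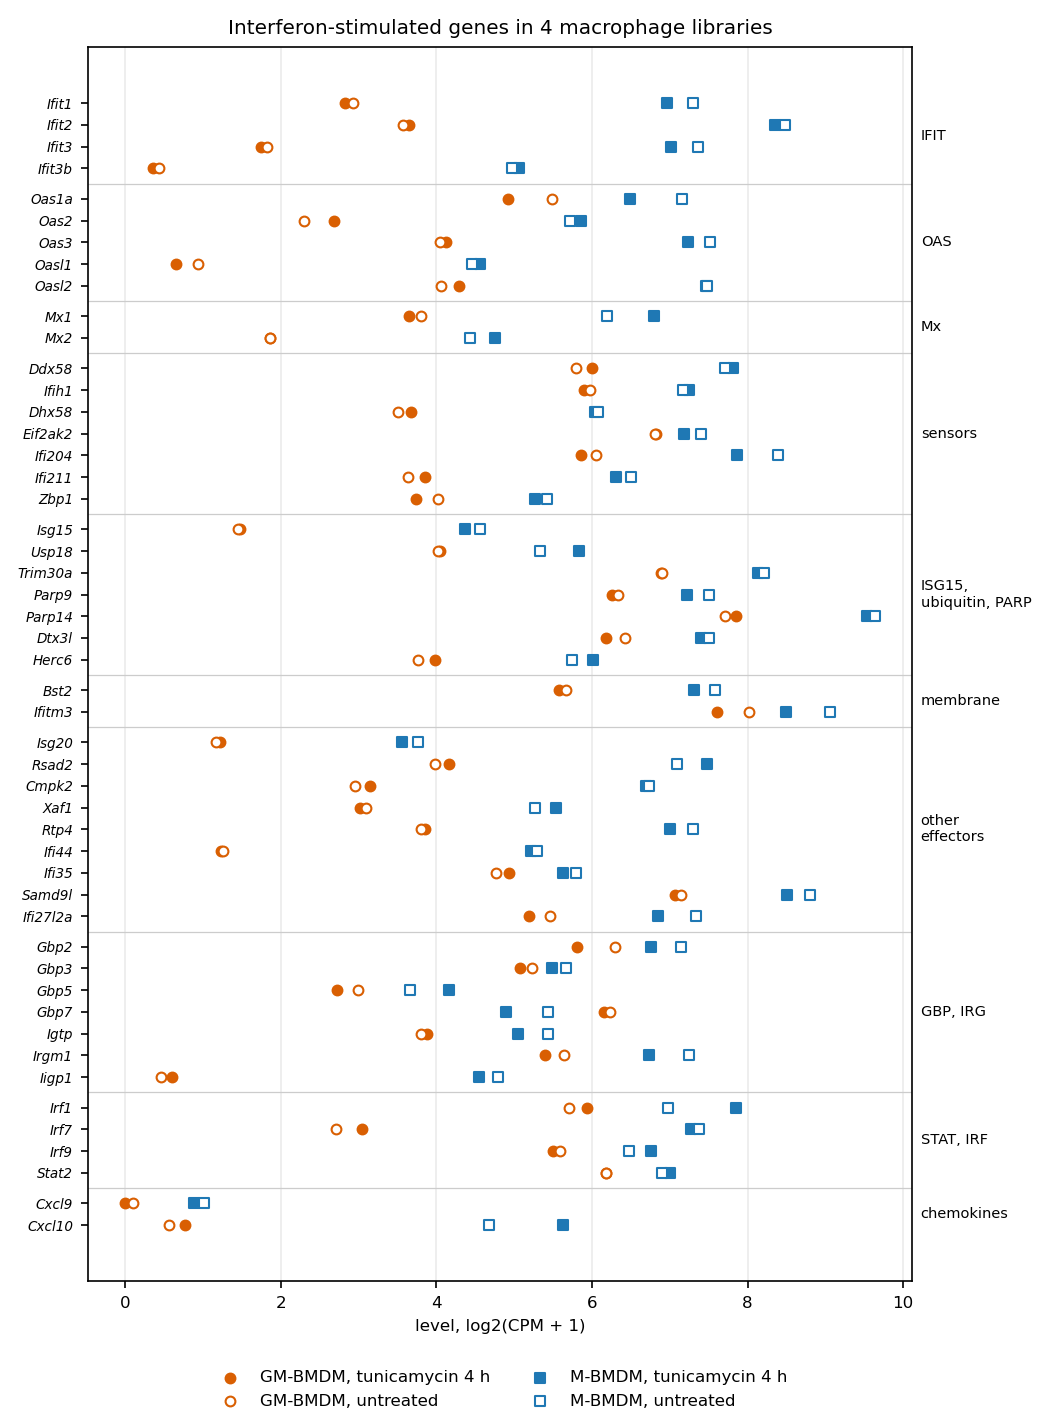
Level of each of the 49 members, as log2(CPM + 1) on the horizontal axis, in the 4 macrophage libraries, grouped by class. Circles (GM-BMDM) lie left of squares (M-BMDM) for every gene drawn except Gbp7, whose circles stand at 70.2 and 74.3 CPM and squares at 28.7 and 42.4 CPM.

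Guanylate-binding proteins coat and break open the vacuoles of intracellular microbes. The 4 members Gbp5, Gbp7, Gbp3 and Gbp2 lie in that order in 1 gene cluster, between chr3:142493978 and chr3:142638008 of GRCm38. Gbp7 had 70.2 and 74.3 CPM in tunicamycin-treated and untreated GM-BMDM, against 28.7 and 42.4 CPM in tunicamycin-treated and untreated M-BMDM, a log2 fold change of 1.05 ± 0.15 (edgeR's quasi-likelihood test, Benjamini-Hochberg adjusted p = 0.0013). Gbp2 went the other way, with 55.0 and 77.4 CPM in tunicamycin-treated and untreated GM-BMDM, against 107 and 140 CPM in tunicamycin-treated and untreated M-BMDM. Neither gene's pair of levels in one kind overlapped the pair in the other. Gbp5 and Gbp3 stood at -1.17 ± 0.22 and -0.44 ± 0.12. Gbp3 was called by edgeR's quasi-likelihood test (Benjamini-Hochberg adjusted p = 0.02) and missed the threshold by DESeq2 (adjusted p = 0.063). Whether these paralogs share reads was not tested.

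The immunity-related GTPases also attack such vacuoles. Iigp1 had 0.518 and 0.373 CPM in tunicamycin-treated and untreated GM-BMDM, against 22.4 and 26.7 CPM in tunicamycin-treated and untreated M-BMDM. Irgm1 and Igtp, which hold such GTPases in check, stood at -1.49 ± 0.12 and -1.47 ± 0.16. The chemokine Cxcl10, which draws T cells, had 0.707 and 0.472 CPM in tunicamycin-treated and untreated GM-BMDM, against 48.5 and 24.5 CPM in tunicamycin-treated and untreated M-BMDM. Its relative Cxcl9 did not reach a mean of 1 CPM, with 0 and 3 counts in tunicamycin-treated and untreated GM-BMDM and 36 and 38 counts in tunicamycin-treated and untreated M-BMDM.

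The gap was of like size with and without tunicamycin. Between untreated libraries 39 of 46 members were at least 2-fold lower in GM-BMDM, against 7.02% of all genes, and 0 were at least 2-fold higher, against 12.4% of all genes. Between tunicamycin-treated libraries 38 were at least 2-fold lower, against 7.82% of all genes, and 1, Gbp7, was at least 2-fold higher, against 12.6% of all genes. The median log2(CPM + 1) difference was -1.86 with tunicamycin and -1.92 untreated, and it lay at -0.04 and -0.03 over all genes in the same order. These comparisons of single libraries have no replicate check.

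The wider pathway was compared from a list of 66 further genes, of which 43 could be tested for kind. In GM-BMDM 23 were lower (53.5%), against 25.0% of all genes, and 6 higher (14.0%), against 25.4% of all genes, by edgeR's quasi-likelihood test. The receptor chains Ifnar1 and Ifnar2 were both at -0.83 ± 0.12. Tlr9, an endosomal sensor of DNA, stood lowest at -2.47 ± 0.16, and Ikbke, a kinase that activates interferon regulatory factors, at -1.68 ± 0.12. Those higher were Irf4, an IRF known for its role in dendritic and alternatively activated cells, at 4.00 ± 0.16, the feedback inhibitors Socs1 and Socs3 at 2.03 ± 0.31 and 1.28 ± 0.25, Nlrx1 at 1.17 ± 0.13, the DNA-sensing adaptor Tmem173 (STING) at 1.09 ± 0.11, and Jak2 at 0.79 ± 0.16. Members and pathway genes therefore did not all move one way.

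The interferon genes themselves were at the edge of detection. Of 20 ligand genes, 16 had 0 counts in every macrophage library and no ligand exceeded 0.379 CPM. Ifnb1, interferon beta, had 1 count summed over the GM-BMDM libraries, with an exact Poisson interval of 0.0253 to 5.57, against 16 over the M-BMDM libraries, with an interval of 9.15 to 26.0. Those intervals cover counting error alone, and the difference rests on a handful of reads.

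Markers of macrophages and of other cells moved with kind as well. The 10 macrophage markers summed to 37119 and 39177 CPM in tunicamycin-treated and untreated GM-BMDM, against 32321 and 51387 CPM in tunicamycin-treated and untreated M-BMDM. Lyz2 made up 33138 and 34953 CPM of these sums in tunicamycin-treated and untreated GM-BMDM, and 21849 and 39136 CPM in tunicamycin-treated and untreated M-BMDM. Single genes of the list differed in both directions. Adgre1 had 434 and 470 CPM in tunicamycin-treated and untreated GM-BMDM, against 2546 and 3163 CPM in tunicamycin-treated and untreated M-BMDM. Csf1r, the receptor for M-CSF, had 945 and 1002 CPM in tunicamycin-treated and untreated GM-BMDM, against 4742 and 5517 CPM in tunicamycin-treated and untreated M-BMDM. Itgam was higher in GM-BMDM, with 380 and 365 CPM in tunicamycin-treated and untreated cells, against 107 and 144 CPM in those of M-BMDM. The 8 neutrophil markers summed to 1607 and 1675 CPM in tunicamycin-treated and untreated GM-BMDM, against 31.6 and 50.4 CPM in tunicamycin-treated and untreated M-BMDM. Of these sums Mmp8 gave 1485 and 1459 CPM in tunicamycin-treated and untreated GM-BMDM, against 25.7 and 45.6 CPM in tunicamycin-treated and untreated M-BMDM. The rest of that list was also higher in GM-BMDM with and without tunicamycin, though Retnlg had at most 0.348 CPM. The 6 markers of conventional dendritic cells summed to 1086 and 1128 CPM in tunicamycin-treated and untreated GM-BMDM, against 17.0 and 12.4 CPM in tunicamycin-treated and untreated M-BMDM. Itgax gave nearly all of that sum, with 1059 and 1100 CPM in tunicamycin-treated and untreated GM-BMDM, against 15.6 and 11.4 CPM in tunicamycin-treated and untreated M-BMDM. Clec9a, Zbtb46 and Cd209a were also higher in GM-BMDM. In the same order, Clec9a had 22.5 and 18.8 CPM against 0.379 and 0.134 CPM. Zbtb46 had 3.37 and 5.22 CPM against 0.521 and 0.429 CPM, and Cd209a 0.919 and 3.13 CPM against 0.118 and 0.134 CPM. Flt3 and Xcr1 were at most 0.237 CPM in all 4 libraries. The 7 markers of plasmacytoid dendritic cells, a main source of type I interferon, summed to 2.40 and 3.85 CPM in tunicamycin-treated and untreated GM-BMDM, against 2.30 and 1.50 CPM in tunicamycin-treated and untreated M-BMDM. Single genes of that list went both ways: Siglech had 0 counts in both GM-BMDM libraries and 32 in each M-BMDM library, and Pacsin1 had 67 and 113 counts in tunicamycin-treated and untreated GM-BMDM, against 2 and 0 counts in tunicamycin-treated and untreated M-BMDM. The part of these markers in the difference was not tested.

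No member passed the test for 4 h of tunicamycin as fitted here. The additive fit called 0 of 46 members by edgeR's quasi-likelihood test, where 9 had an unadjusted p under 0.05, and called 0% of all genes, of which 1103 had an unadjusted p under 0.05. DESeq2 called 1 member, Oas1a, lower, and 52 genes in all. Oas1a had 29.3 CPM with tunicamycin and 43.8 CPM untreated in GM-BMDM, and 88.7 CPM with tunicamycin and 142 CPM untreated in M-BMDM. It was lower with tunicamycin in both kinds, with a log2 fold change of -0.63 ± 0.11 in the fit.

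In GM-BMDM 0 members differed 2-fold between the tunicamycin-treated and the untreated library, against 0.507% of all genes. The median log2(CPM + 1) difference was -0.00, with 23 members above 0 and 23 below, and the range ran from -0.57 for Oas1a to 0.39 for Oas2. In M-BMDM 0 members differed 2-fold as well, against 1.47% of all genes, and the median was -0.14, with 14 members above 0 and 32 below. Scaling by total counts, which moved the median of all genes there to 0.10, gave 21 above 0 and 25 below, so the direction of the smaller differences depends on scaling.

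The members with the widest positive differences in M-BMDM were Cxcl10, Irf1, Gbp5 and Usp18. Cxcl10 had 2048 counts with tunicamycin and 913 untreated in M-BMDM, a log2(CPM + 1) difference of 0.96, and 30 against 19 counts in GM-BMDM. Irf1 stood 0.86 higher in M-BMDM and 0.24 higher in GM-BMDM on that scale. Gbp5 and Usp18, the protease that removes Isg15, each stood 0.50 higher in M-BMDM, where Ifit3 stood at -0.35, Gbp7 at -0.55 and Ifitm3 at -0.57. Mx1, which was not in the counts above, stood at 0.61. These are single pairs of libraries without a test. In the additive fit Cxcl10 was not called, while the fit without the filter on low counts called it higher with tunicamycin, at 0.91 on the log2 scale (edgeR's quasi-likelihood test, adjusted p = 0.03). Its adjusted p was 0.33 with the filter and 0.03 to 0.44 over the alternatives, DESeq2 among them.

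**Figure D4:**
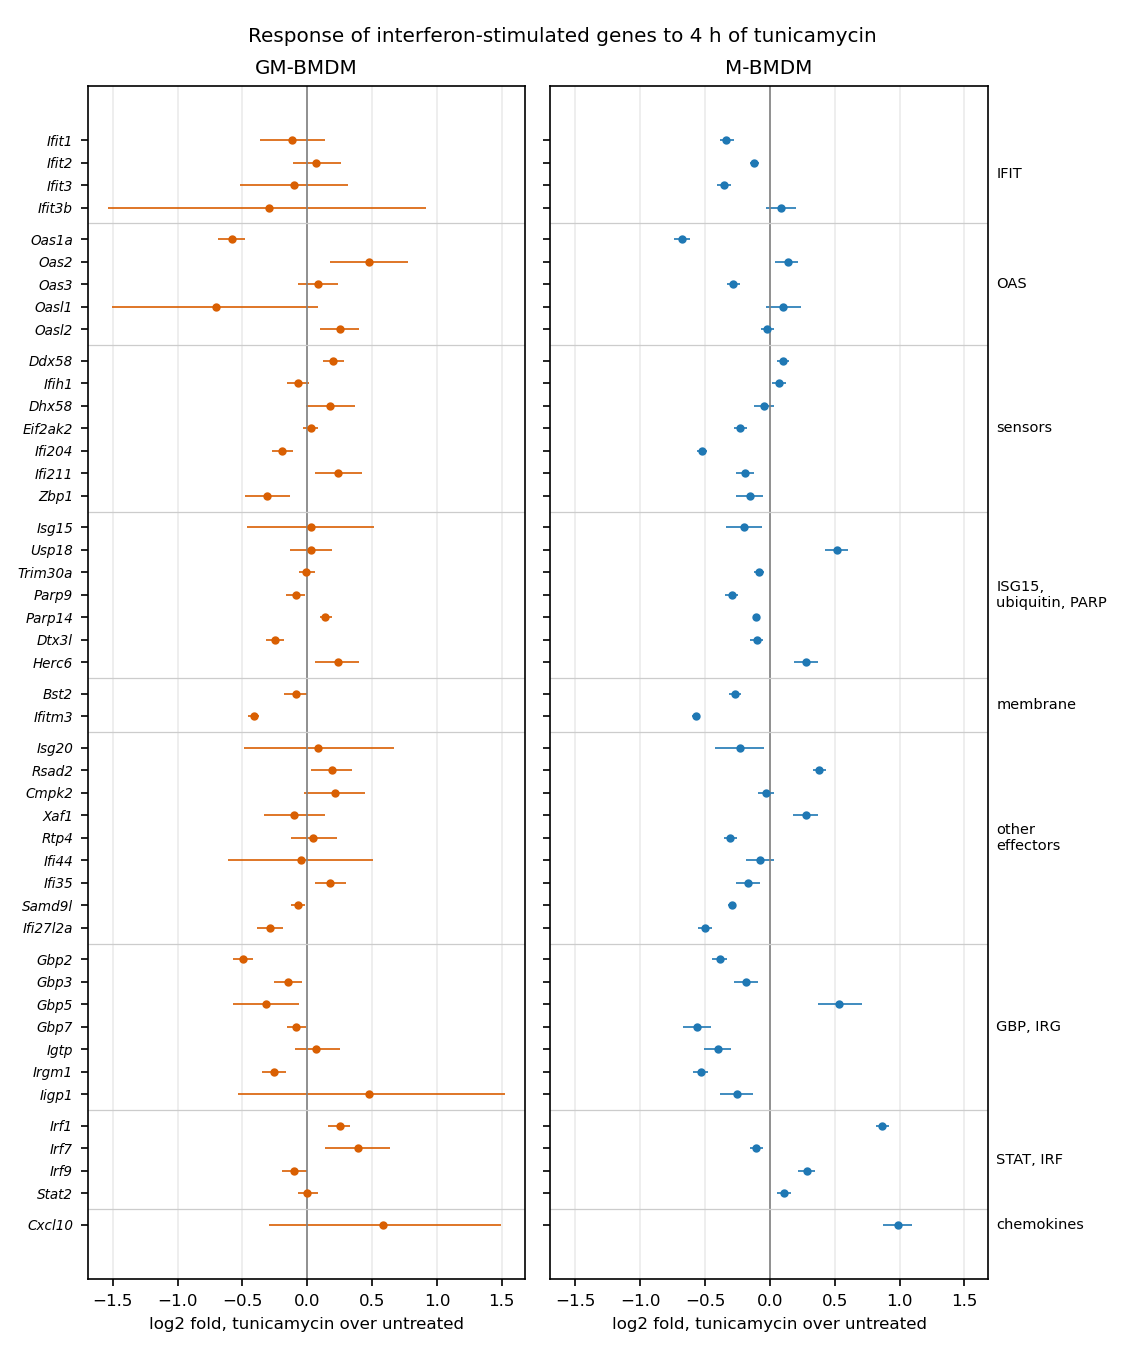
Log2 fold, tunicamycin over untreated, of the 46 members compared in GM-BMDM (left) and M-BMDM (right), with bars for the 95% counting interval of each fold. Most points lie near 0 in both kinds, and in M-BMDM Cxcl10 and Irf1 lie farthest right at folds of 1.98 and 1.82.

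LLC cells expressed a smaller set of these genes. Of the 47 members, 30 reached a mean of 1 CPM over the 5 libraries, among them 22 of 34 effectors, 3 of 7 guanylate-binding and immunity-related GTPases and all 4 regulators. Ifit1, Ifit3, Ifit3b, Oas2, Rsad2, Usp18, Cmpk2, Rtp4, Ifi44, Zbp1, Trim30a, Cxcl9, Gbp2, Gbp3, Gbp5, Iigp1 and Ifi27l2a did not, and none of these 17 exceeded 1.42 CPM in any library. Of the Ifit family, only Ifit2 passed, at 19.5 to 25.8 CPM. On the FPKM scale Ifitm3, Bst2 and Samd9l stood highest in each of the 5 libraries, with Ifitm3 at 241 to 376 FPKM and Bst2 at 87.8 to 145 FPKM. The same 20 ligand genes gave 16 with 0 counts in every LLC library, and none exceeded 0.194 CPM.

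Between LLC cells with macrophage medium and the untreated LLC library, members differed in both directions and their median was close to that of all genes. In an additive fit over the 5 LLC libraries, the term for medium against none called 6 of 30 members higher (20.0%) and 3 lower (10.0%) by edgeR's quasi-likelihood test, against 24.9% of all genes higher and 21.9% lower. The share of members called was therefore no larger than that of all genes, and the median log2 fold change was 0.05 over members and 0.02 over all genes. DESeq2 called 2 higher and 3 lower. The spread of single genes in this fit came from the trend over all genes, with a coefficient of variation of 4.28%, and the 4 media share 1 untreated library. That library is fitted exactly by its own term and gives no spread of its own, so it is assumed to vary like the 4 media libraries. A call for medium against none therefore says that these media libraries differ from that 1 library. The DESeq2 counts are not set against a share over all genes.

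Ifi211 and Ifi204, both on chromosome 1 and from the family of interferon-induced DNA-binding proteins, had the largest positive log2 fold changes among the members called. Ifi211 had 11.5, 13.6, 11.1 and 7.03 CPM with stressed GM, unstressed GM, stressed M and unstressed M medium, against 3.36 CPM in untreated cells. Ifi204 had 17.1, 15.1, 13.5 and 9.10 CPM in that order of media, against 5.14 CPM in untreated cells. All 4 medium libraries lay above the untreated one for both genes, and their log2 fold changes were 1.66 ± 0.24 and 1.38 ± 0.20. Both belong to a family of close paralogs, and whether reads were shared among them was not tested.

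Isg20, an RNA-cutting exonuclease, had 12.5, 9.23, 6.56 and 7.42 CPM with stressed GM, unstressed GM, stressed M and unstressed M medium, against 5.34 CPM in untreated cells. Isg15, Oas1a and Irf1 were also called higher with medium, at 0.84 ± 0.37, 0.76 ± 0.30 and 0.55 ± 0.14. Stat2, Ddx58 and Bst2 were called lower with medium. Stat2 had 42.4, 51.1, 39.0 and 48.2 CPM with stressed GM, unstressed GM, stressed M and unstressed M medium, against 66.2 CPM in untreated cells. Bst2 had 80.0, 91.7, 89.3 and 112 CPM in that order of media, against 130 CPM in untreated cells. Untreated cells stood above all 4 media for each, and the log2 fold changes were -0.56 ± 0.09 for Stat2, -0.61 ± 0.10 for Ddx58 and -0.49 ± 0.07 for Bst2. Of 39 further pathway genes tested, 2 were called higher (5.13%), against 24.9% of all genes, and 8 lower (20.5%), against 21.9% of all genes. Irf8, an IRF of myeloid cells, was the lowest of these at -1.44 ± 0.31. Irf8 had 2.71, 1.30, 1.89 and 1.87 CPM in that order of media, against 5.20 CPM in untreated cells.

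Taken one medium at a time, 2-fold differences from untreated cells on the log2(CPM + 1) scale were few. Stressed GM medium gave 3 members at least 2-fold higher, Ifi204, Ifi211 and Isg20 (10.0%), against 3.89% of all genes past 2-fold in either direction. Unstressed GM medium gave 2, Ifi204 and Ifi211 (6.67%), against 2.97% of all genes, and stressed M medium gave the same 2, against 3.36%. Unstressed M medium gave 0, against 1.90%, with Ifi211 the farthest at 0.88 on the log2(CPM + 1) scale. On that scale no member was at least 2-fold lower in any of these 4 comparisons. The added 1 CPM narrows differences of genes at low levels. Cxcl10 had 0.237 CPM with stressed M medium, against 1.25 CPM in untreated cells. Gbp7 had 0.441 CPM with stressed GM medium against 1.19 CPM, and Oasl2 0.839 CPM with unstressed M medium against 1.78 CPM.

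**Figure D5:**
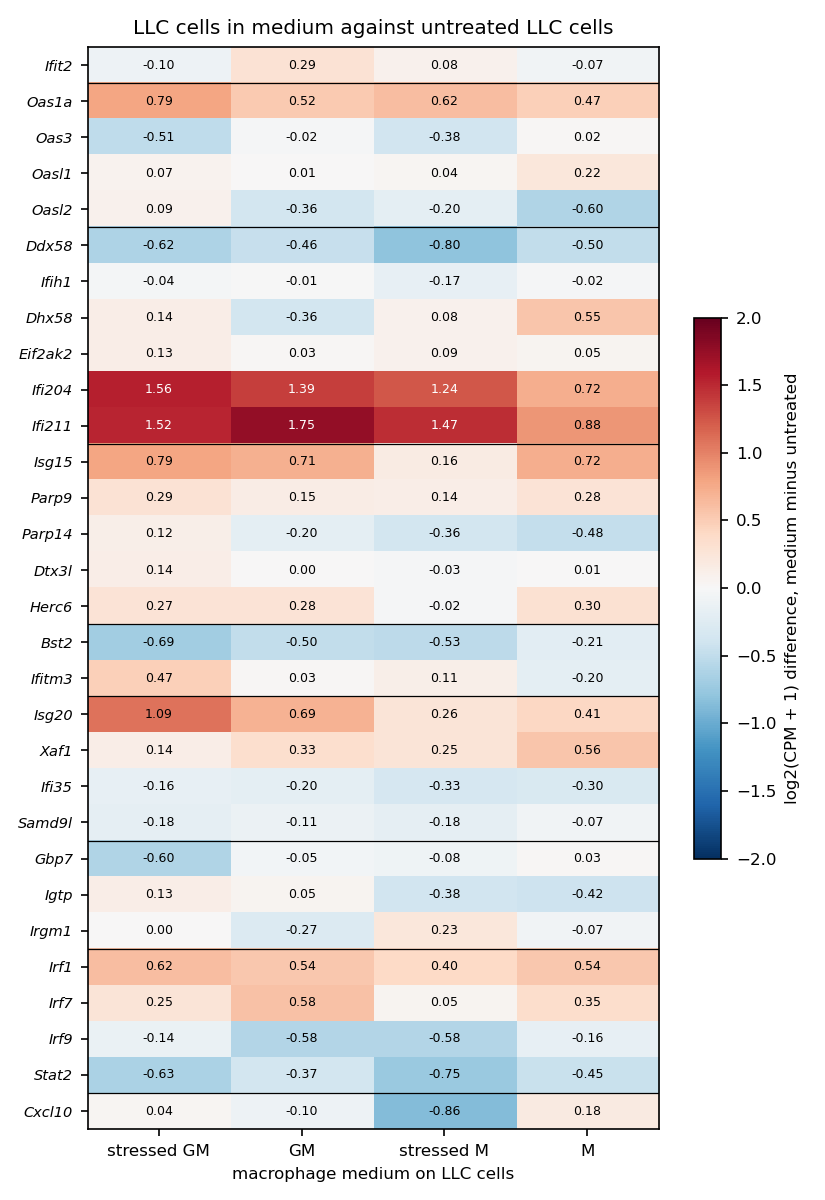
Difference in log2(CPM + 1), medium minus untreated LLC cells, for the 30 members compared (rows, lines between classes) and 4 media (columns), in red where medium was higher and blue where it was lower. Ifi204 and Ifi211 are higher in all 4 columns, and Ddx58, Stat2 and Bst2 are lower in all 4.

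Stressed medium was set against unstressed medium to ask whether tunicamycin given to the macrophages left a mark on these genes in the tumour cells. The stress term of the fit called 1 of 30 members higher (3.33%), against 12.5% of all genes, and 2 lower (6.67%), against 10.9% of all genes, by edgeR's quasi-likelihood test. Ifitm3 was the one called higher. It had 257 CPM with stressed GM and 200 CPM with stressed M medium, against 190 CPM with unstressed GM and 161 CPM with unstressed M medium, a log2 fold change of 0.38 ± 0.06. Stat2 and Bst2 were called lower, at -0.29 ± 0.08 and -0.27 ± 0.06. DESeq2 called 1 higher and 0 lower, and its shares over all genes are not given here. In single pairs, 0 members differed 2-fold on the log2(CPM + 1) scale between stressed and unstressed GM medium, against 0.518% of all genes. Gbp7 came farthest there at -0.55, with 7 against 17 counts. Between stressed and unstressed M medium 1 member was at least 2-fold lower on that scale, against 0.554% of all genes. It was Cxcl10, with 4 against 24 counts. A summed level of 6 fibroblast markers was lower with stressed medium in the same libraries, and its part in these differences was not tested. The sum was 1012 and 1003 CPM with stressed GM and M medium, against 1766 and 1540 CPM with unstressed GM and M medium. It was 1187 CPM in untreated LLC cells. Col3a1 gave most of it, with 938 and 940 CPM with stressed and 1650 and 1441 CPM with unstressed medium, in the same order. Col1a2 went the other way between stressed and unstressed M medium.

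GM medium and M medium were compared over the members in LLC cells, with and without stress. Between stressed GM and stressed M medium 24 of 30 members were above 0 and 6 below on the log2(CPM + 1) scale, with a median of 0.16 over members and -0.01 over all genes. The 95% counting interval of the fold lay above 1 for 10 of them and below 1 for 2. These intervals cover counting error alone, and the same shares over all genes are not given here. Between unstressed GM and unstressed M medium 15 were above 0 and 15 below, with a median of -0.00. The difference between these pairs was not tested. The term for kind of medium called 3 of 30 members higher with GM medium (10.0%), against 2.21% of all genes, and 1 lower (3.33%), against 2.32% of all genes, by edgeR's quasi-likelihood test. Isg20, Ifi204 and Ifitm3 were higher at 0.63 ± 0.18, 0.52 ± 0.15 and 0.30 ± 0.06, and Bst2 was lower at -0.23 ± 0.06. DESeq2 called 0 members in either direction, with 2 at an unadjusted p under 0.05, and its shares over all genes are not given here. On the log2(CPM + 1) scale, 0 members differed 2-fold between unstressed GM and unstressed M medium, against 0.188% of all genes. Between stressed GM and stressed M medium 0 members did, against 0.259%. Dhx58, the third RNA helicase of the sensor class, came nearest in the unstressed pair at -0.91 on that scale. It had 14 against 40 counts, or 0.910 against 2.58 CPM, and the added 1 CPM narrows differences at such low levels. Cxcl10 came nearest in the stressed pair at 0.91, with 1.32 against 0.237 CPM.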

How the data were processed

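Titles and treatment labels gave the groups of the 9 libraries. Read counts per gene and FPKM were deposited by the authors in 1 table for macrophages and 1 for LLC cells. Cutadapt 1.15, HISAT2 and TopHat2 2.1.0 are named, per the submitters' processing notes, with no role or order, and no source used here gives the counter, its strand setting or the build. Without strand, reads of a gene and of an overlapping antisense gene cannot be told apart. Equal coordinates in GENCODE M21 (GRCm38) were found for 46 of 47 members, and positions are printed for that build. A carriage return in the last cell of LLC lines was stripped.

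CPM used TMM library sizes from edgeR 4.0.16 (R 4.3.3) per table. Genes had to average 1 CPM or more, which left 11049 for macrophages and 11190 for LLC cells. Of the 47 members 46 and 30 passed, and 4 of the 46 did so through M-BMDM alone. In 12 comparisons of 2 libraries a log2(CPM + 1) difference of 1 counted as 2-fold, and folds carry exact Clopper-Pearson 95% intervals for counting error alone. The additive fits were tested by the quasi-likelihood test of edgeR, adjusted by Benjamini-Hochberg over all genes at 0.05, with 1 residual degree of freedom in each table. The macrophage fit held kind and tunicamycin, and the LLC fit held medium against none, kind of medium and stress. The SE is the absolute log2 fold change over the square root of F. Since labels do not say that libraries came from separate cultures of 1 condition, p-values measure the spread between these libraries only. The prior degrees of freedom were 5.77 for macrophages and infinite for LLC cells. The steps were tested on simulated data. Alternatives included DESeq2 1.42.0, other scalings, filters and pseudocounts.

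Members and lists were chosen with earlier results of these data known. Members named are the 4 highest and 4 lowest of each comparison of 2 libraries and 10 named throughout, and not all are printed. Promoters are shown for the member of largest difference in a class where it had an entry and a match (Ifit3b, Ifi211, Isg15, Bst2, Ifi44 and Cxcl10). Ifit3, Oas1a, Gbp2, Gbp7 and Ifitm3 were added after values were seen, as were other members named to describe a class.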

Additional observations from a re-analysis of the deposited data

Results flagged for a closer look

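In 7 cases a member moved in opposite directions under the same treatment in the GM and the M setting, with the 95% counting interval of both folds excluding no change. None of these differences was tested, since each group held 1 library. Neither this count nor the median below is set against all genes, so they show nothing particular to the members.

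With tunicamycin, 6 members did so in macrophages. The response of Gbp5 in GM-BMDM minus that in M-BMDM was -0.78 on the log2(CPM + 1) scale, from -0.27 in GM-BMDM and 0.50 in M-BMDM. The regulators Irf7 and Irf9 were opposed to each other, at 0.44 for Irf7 and -0.38 for Irf9. Irf7 stood at 0.34 in GM-BMDM and -0.10 in M-BMDM, and Irf9 at -0.10 in GM-BMDM and 0.28 in M-BMDM. For Ifi211 the difference was 0.41, for Ifi35 0.34 and for Parp14 0.25, each with a positive response in GM-BMDM and a negative one in M-BMDM. Scaled by RLE, all 6 remained opposed with both intervals excluding no change, while scaled by total counts 2 of the 6 did, Gbp5 at -0.83 and Ifi211 at 0.35. With total counts the response in M-BMDM was 0.00 for Irf7, -0.00 for Parp14 and -0.06 for Ifi35, and that of Irf9 in GM-BMDM was -0.04, each with an interval that included no change. Over 46 members the median difference was 0.20, with 31 above 0.

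In LLC cells 1 member did so with stressed medium. Irf9 had 8.75 CPM with stressed GM and 6.17 CPM with unstressed GM medium, and 6.21 CPM with stressed M and 8.64 CPM with unstressed M medium, a difference of 0.86 between the responses. It was 0.87 scaled by RLE and 0.89 by total counts.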

How the results depend on the processing

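The lower level of members in GM-BMDM kept its direction and its count within 1.5 times under each alternative run, among them one chosen after seeing the data that left out the 4 members below 1 CPM in both GM-BMDM libraries. Other counts of members were small and moved by 1 or a few. Scaling by total counts brought the M-BMDM tunicamycin median to -0.03, put 1 member (Cxcl10) past 2-fold, and turned Irf7 to 0.00, Trim30a to 0.02 and Dtx3l to 0.00. With close paralogs left out, members at least 2-fold higher than in untreated LLC cells numbered 0 with unstressed GM, 1 with stressed GM and 0 with stressed M medium, since Ifi204 and Ifi211 are among those left out. With a pseudocount of 0.25 CPM there was 1 higher with unstressed M medium, 1 lower with stressed GM, 1 lower with stressed M, 1 lower for unstressed GM against unstressed M, and 1 higher for stressed GM against stressed M. A minimum mean of 5 CPM, which drops Cxcl10, left 0 lower for stressed against unstressed M medium. For tunicamycin the fit without a filter called 1 higher (Cxcl10) and 1 lower (Oas1a), and DESeq2 called 1 lower (Oas1a). DESeq2 called 2 members higher for medium against none, 0 lower for stress, and 0 higher and 0 lower for kind of medium. Requiring 1 more A after the core left it in 59.5% of members and 3.99% of all genes. Causes not stated here were not tested. No paired analysis was possible because each group held 1 library and no replicate numbers, so that no replicate could be left out; the additive fits compare tunicamycin within kind and stress within kind of medium. Low counts, as the 4 and 24 of Cxcl10 with stressed and unstressed M medium, limit what can be seen in LLC cells.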
